A study of Ovis aries with 32 samples.

Results

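CREM, the cAMP responsive element modulator, was read by 4 of the 15008 probes on a sheep expression array, and these 4 probes fell into 2 pairs that differed in how often they were well above background. Probes A_70_P012576 and A_70_P012577 carry the RefSeq mRNA accession NM_001104935 and were far brighter after phenylephrine at each of the 4 ages. Probes A_70_P024296 and A_70_P024297 carry the expressed sequence tag EE874148 and were not well above background on 30 of the 32 arrays. CREM was chosen by its rise with phenylephrine and by the contrast between its probes, so both are given as a description and support nothing further. The differences between ages in untreated arteries and the differences in the response between ages were tested. The differences in the response are formed from the same rises by which CREM was chosen. CREM was also chosen with earlier results of these data known, so these tests are not independent of the choice.

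The arrays measured RNA from ovine middle cerebral artery, cleaned of fat and connective tissue and cut into segments. The 8 groups of 4 arrays were premature fetus, near-term fetus, newborn lamb and nonpregnant adult sheep, each untreated or exposed to 10 µM phenylephrine (PHE), an agonist of alpha-1 adrenergic receptors, for 30 min. The premature fetuses were at 96 days of gestation. For the other ages the sample labels and the methods differ: 140 or 146 days of gestation for near-term fetuses, 12 h or 5 days after birth for newborn lambs, and 18 to 24 months or 2 years for adults. The study used 4 animals per experiment, and precision is limited by having 4 arrays a group. An artery segment holds several cell types, so a change in the cells present and a change in RNA per cell cannot be told apart. Calponin (CNN1), a contractile protein of smooth muscle, was bright in untreated arteries of each age, at 5.10 ± 0.15 in premature, 7.92 ± 0.69 in near-term, 6.95 ± 0.33 in newborn and 8.64 ± 0.60 in adult arteries (log2 level, mean ± SD, n = 4). It was the only 1 of 8 smooth muscle markers named on the array.

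CREM belongs to the family of basic leucine zipper factors that bind cAMP response elements in promoters. The gene yields activators and repressors by alternative splicing and by alternative promoters, and its short repressor forms, called ICER, are made from an internal promoter that is itself induced by cAMP signalling. ICER is known for damping the same early genes that cAMP and calcium signals switch on. The RefSeq annotation of the sheep assembly ARS-UI_Ramb_v3.0 lists 28 transcripts of CREM, 1 of them a curated mRNA and 27 of them predicted models. Which of these transcripts each probe reads was not determined, because no probe sequence was used here.

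All levels are log2 of the background-corrected spot signal minus log2 of the 75th percentile of that signal on the same array. A level of 0 is thus the signal at that percentile, and a level of 1 is 2-fold brighter. Levels of different probes depend on how well each probe hybridizes, so results of probes were compared by their differences between groups and not by their levels. Levels were used to pick 1 probe of a gene, in the gene lists and in the search for genes that followed CREM. The 75th percentile itself ran from 124 intensity units on near-term untreated array 4 to 1710 on adult untreated array 3. The near-term groups were the most uneven. Near-term untreated array 4 had a percentile only 1.08 times the local background and near-term PHE array 1 stood at 369 units, against 638 to 985 in the premature groups and 645 to 864 in the newborn groups. The CREM differences that use near-term arrays are given with and without these 2 arrays. Near-term untreated array 3, at 391 units and 2.77 times background, had 53 outlier spots, the most of the 32 arrays. It was left out only in the runs that left out 1 array at a time.

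**Figure D1:**
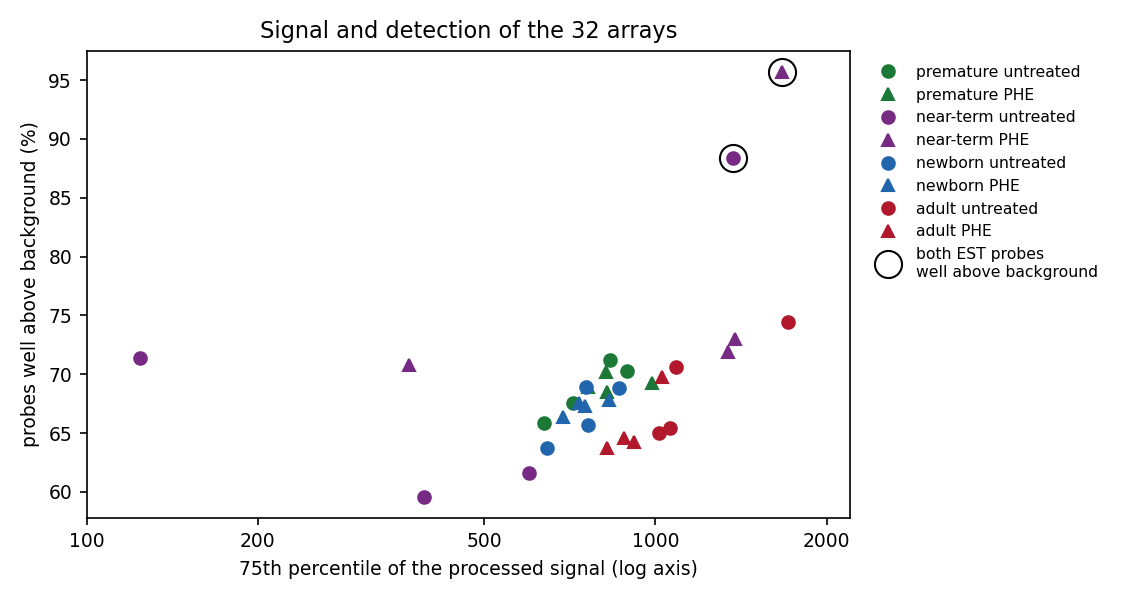
Brightness of each of the 32 arrays, with the 75th percentile of the processed signal (intensity units, log axis) against the percent of probes well above background. Near-term arrays are spread the widest, from 124 to 1670 units, and 2 of them had 88.4% and 95.7% of probes well above background.

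In premature arteries, the untreated levels of A_70_P012576 on arrays 1 to 4 were -2.53, -2.59, -2.65 and -2.65, and the PHE levels were 4.22, 4.77, 4.59 and 4.69. The second RefSeq probe, A_70_P012577, read -2.04, -2.35, -2.26 and -2.11 untreated and 4.37, 4.79, 4.65 and 4.76 with PHE. The arrays lay close together within each premature group and the groups were far apart. The mean of A_70_P012576 went from -2.60 ± 0.06 to 4.57 ± 0.24, a difference of 7.17 or 144-fold. That of A_70_P012577 went from -2.19 ± 0.14 to 4.64 ± 0.19, a difference of 6.83 or 114-fold. With normexp background correction the differences were 6.02 and 6.11.

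In near-term arteries, A_70_P012576 read -3.86, -2.32, -3.57 and -2.09 untreated and 0.30, 2.28, 0.89 and 3.36 with PHE. A_70_P012577 read -2.85, -2.49, -2.98 and -2.67 untreated and 0.33, 2.33, 1.09 and 4.00 with PHE. The near-term PHE arrays were spread over more than 3 log2 units, with array 1 the lowest and array 4 the highest for both probes. The mean differences were 4.67 (25.4-fold) and 4.69 (25.7-fold). Without PHE array 1 they were 5.14 (35.2-fold) and 5.22 (37.3-fold), and without both doubted arrays 5.43 (43.0-fold) and 5.25 (38.0-fold). Without near-term untreated array 3 they were 4.47 and 4.61, and without PHE array 4 they were 4.12 and 4.0. With normexp background correction over all arrays they were 2.52 and 3.1. Among arrays of the slide that held all 4 near-term PHE arrays and untreated array 4 alone, the differences were 3.80 and 4.61.

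In newborn arteries, A_70_P012576 read -2.05, -2.46, -1.86 and -2.17 untreated and 4.16, 4.01, 3.93 and 5.01 with PHE. A_70_P012577 read -1.86, -1.93, -1.53 and -1.89 untreated and 4.27, 4.07, 4.07 and 5.05 with PHE. PHE array 4 was the highest for both probes. The mean differences were 6.41 (85.0-fold) and 6.17 (71.8-fold), and with normexp background correction they were 5.73 and 5.68.

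In adult arteries, A_70_P012576 read -3.57, -3.12, -2.95 and -3.65 untreated and 4.64, 1.15, 3.07 and 3.50 with PHE. A_70_P012577 read -3.29, -2.68, -2.67 and -3.47 untreated and 4.48, 1.09, 3.29 and 3.77 with PHE. Adult PHE array 2 was the lowest of its group for both probes by about 2 log2 units. The mean differences were 6.41 (85.2-fold) and 6.19 (72.8-fold), and without PHE array 2 they were 7.06 (133-fold) and 6.87 (117-fold). Within the slide that held the 4 adult PHE arrays and 2 untreated ones, the differences were 6.43 and 6.14. With normexp background correction over all arrays they were 5.48 and 5.68.

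Untreated and PHE arrays of the RefSeq probes did not overlap at any age. The lowest PHE array stood above the highest untreated array by 2.39 (near-term, A_70_P012576) to 6.75 (premature, A_70_P012576) log2 units. Ranked from the largest rise with PHE downwards, the 2 probes held places 10 and 11 among 10162 probes compared in premature arteries. They held places 45 and 44 of 9922 in near-term, 7 and 9 of 9796 in newborn and 9 and 13 of 9582 in adult arteries. Falls of larger size were not counted ahead of them.

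**Figure D2:**
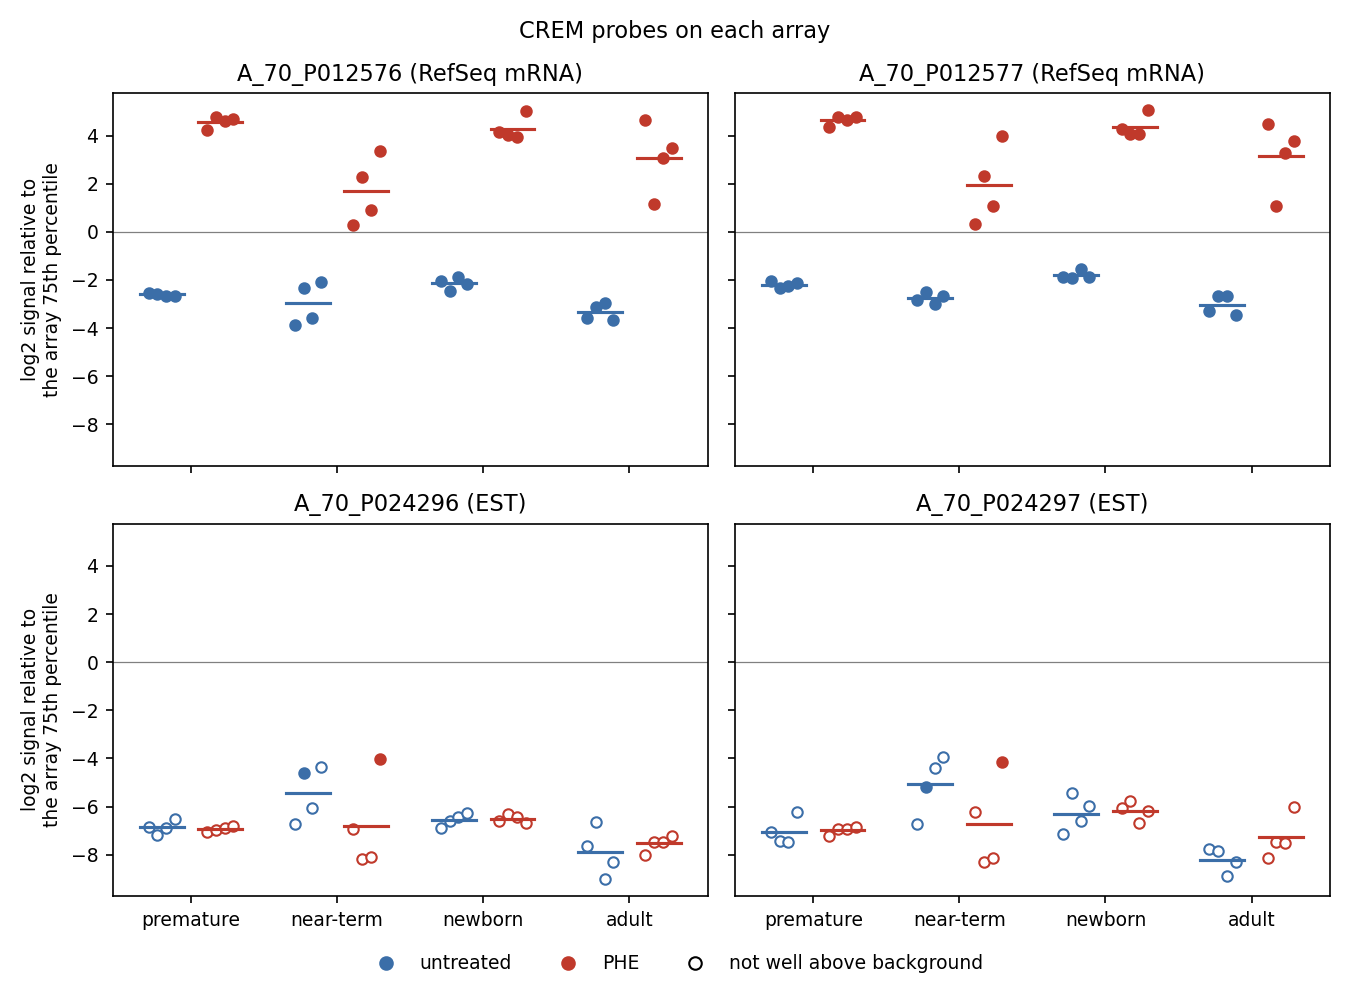
Log2 level of the 4 CREM probes on each of the 32 arrays, untreated and PHE, by age, with filled symbols for spots well above background and a bar at the mean of each group. The RefSeq probes separate PHE from untreated arrays at each age, by at least 2.39 log2 units, while the EST probes were well above background on 2 arrays each.

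The pair of EST probes gave another picture. On the premature arrays, A_70_P024296 read -6.85, -7.19, -6.89 and -6.51 untreated and -7.06, -6.96, -6.88 and -6.79 with PHE, and no array of either group was well above background. Its near-term levels were -6.73, -4.60, -6.05 and -4.37 untreated and -6.93, -8.18, -8.11 and -4.04 with PHE. The newborn levels of A_70_P024296 were -6.90, -6.61, -6.45 and -6.28 untreated and -6.62, -6.31, -6.45 and -6.70 with PHE, and its adult levels were -7.65, -6.65, -9.02 and -8.30 untreated and -8.01, -7.46, -7.46 and -7.21 with PHE. Untreated and PHE arrays of this probe overlapped at each age.

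The other EST probe, A_70_P024297, read -7.05, -7.44, -7.48 and -6.24 in untreated and -7.23, -6.95, -6.94 and -6.86 in PHE-exposed premature arteries. Near-term levels were -6.73, -5.17, -4.41 and -3.95 untreated and -6.23, -8.30, -8.14 and -4.16 with PHE. In newborn arteries it read -7.15, -5.45, -6.61 and -6.00 untreated and -6.05, -5.79, -6.69 and -6.19 with PHE, and in adult arteries -7.77, -7.85, -8.91 and -8.32 untreated and -8.13, -7.46, -7.50 and -6.00 with PHE. Its untreated and PHE arrays also overlapped at each age.

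Both EST probes were well above background on the same 2 arrays, near-term untreated 2 and near-term PHE 4. On those arrays 88.4% and 95.7% of all probes were well above background, while no other array exceeded 74.4%. The spot signal of A_70_P024296 was 1.81 times its local background in the median (1.13 to 3.13 over 32 arrays) and that of A_70_P024297 1.95 times (0.977 to 3.26). For the RefSeq probes this ratio reached 227 and 401 with PHE. On untreated arrays it ran only from 1.62 to 4.86 for A_70_P012576 and from 1.66 to 5.88 for A_70_P012577. The PHE folds and the untreated comparisons of the RefSeq probes thus rest on dim untreated signals. In no group did all 4 arrays show either EST probe well above background. The EST probes thus entered no test in the main fit, and no fold is given for them. Near background a change may be missed, so the EST probes do not show that the RNA they read was constant. None of the 4 probes was saturated or marked as an outlier on any array.

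Such a split between 2 accessions of a gene could be looked for in few genes. Of 28 genes with probes for 2 or more accessions, 11 had an accession well above background on all 32 arrays. For CREM the other accession was so on 2 arrays, for INSL3 on 5 and for ACTB on 6. IL18 had 1 accession above background on 31 arrays and the other on 1. These genes were picked after their counts were seen. Probes of this kind were not rare on the array as a whole. Of the 15008 probes, 7144 (47.6%) were well above background on all arrays, 1736 (11.6%) on 2 or fewer and 352 on none. The accession field of the RefSeq probes also lists EE874148, so the array design assigned that tag to the same gene.

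The RefSeq probes moved together. Over the 32 arrays their levels had Pearson r = 0.997 and Spearman rho = 0.980, a value set largely by the distance between untreated and PHE arrays. After the mean of each of the 8 groups was removed, r was 0.934 and rho was 0.913. The widely spread near-term and adult PHE arrays weigh most in this r. Within untreated groups the order of arrays could differ between the probes. Near term the highest untreated array was 4 for A_70_P012576 (-2.09) and 2 for A_70_P012577 (-2.49). Both probes share each array's RNA, labelling and scaling. The PHE difference of A_70_P012576 exceeded that of A_70_P012577 by 0.34 in premature, 0.24 in newborn and 0.23 in adult arteries and by -0.02 in near-term arteries. For comparison, pairs of probes that share an accession differed by 0.06 in the median in premature (284 pairs), 0.19 in near-term (275 pairs), 0.06 in newborn (268 pairs) and 0.10 in adult arteries (251 pairs). A difference at least as large as that of CREM was found in 8.10%, 94.2%, 11.2% and 20.7% of these pairs, in the same order.

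The order of the 8 groups was the same for both RefSeq probes. Premature PHE was the highest, followed by newborn PHE, adult PHE and near-term PHE, and then by newborn, premature, near-term and adult untreated arteries. Means with PHE were 4.57 and 4.64 in premature, 4.28 ± 0.50 and 4.37 ± 0.46 in newborn, 3.09 ± 1.45 and 3.16 ± 1.46 in adult, and 1.71 ± 1.38 and 1.94 ± 1.60 in near-term arteries, with A_70_P012576 named first. Neighbours among the 4 PHE groups overlapped in range for both probes. Untreated means were -2.13 ± 0.25 and -1.80 ± 0.18 in newborn, -2.60 and -2.19 in premature, -2.96 ± 0.88 and -2.75 ± 0.22 in near-term, and -3.32 ± 0.34 and -3.03 ± 0.41 in adult arteries. Among the untreated neighbours, newborn and premature arrays did not overlap for either probe, and premature and near-term arrays did not overlap for A_70_P012577. The order of the untreated groups changed with the processing: newborn minus near-term turned from 0.83 and 0.95 to -0.97 and -0.21 with normexp background correction, and adult minus near-term from -0.36 and -0.28 to 0.47 and 0.73 with quantile normalization.

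The untreated level of CREM was compared between ages by limma over all 32 arrays, two-sided, with p-values adjusted by the Benjamini-Hochberg method over all probes tested. A call needed an adjusted p under 0.05 and a difference of at least 1.5-fold. Of 10 such comparisons (2 RefSeq probes, 5 pairs of ages) 0 were called by limma, and 2 had an unadjusted p under 0.05. The widest was adult against newborn, where the level fell by 1.19 (SE 0.547, adjusted p = 0.0658) for A_70_P012576 and by 1.23 (SE 0.545, adjusted p = 0.0559) for A_70_P012577, and all 4 adult arrays were under all 4 newborn arrays. In that comparison 52.6% of all probes tested were called. With quantile normalization the differences were -0.51 and -0.63, and with median scaling -0.58 and -0.62, and none of these passed. Both differences passed when only the 8 arrays compared were fitted (adjusted p = 0.00108 and 0.00115), and over the 42 alternatives their adjusted p ran from 0.00108 to 0.430 and from 0.00115 to 0.407. They also passed with 1 array of another group left out of the shared spread: adult PHE 1 (adjusted p = 0.0445 and 0.0432), adult PHE 2 (0.0312 and 0.0212), near-term PHE 1 (0.0475 and 0.0341) or near-term PHE 4 (0.0396 and 0.0203).

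Between newborn and near-term arteries the untreated difference was 0.83 (SE 0.546, adjusted p = 0.209) and 0.95 (SE 0.544, adjusted p = 0.147), and 47.3% of all probes were called. Without near-term untreated array 1 the first was 0.53. The second passed when only the arrays compared were fitted (adjusted p = 0.00653, in a range up to 0.767 over 42 alternatives). Near-term minus premature gave -0.36 (adjusted p = 0.611) and -0.56 (adjusted p = 0.415), beside 43.2% called, and 0.85 and 0.20 with normexp background correction. For A_70_P012576 near-term minus premature was -0.06 without near-term untreated array 1, -0.16 without array 3, -0.57 without array 2 and -0.65 without array 4. Without both doubted arrays newborn minus near-term was 1.12 and 0.97 (adjusted p = 0.0809 and 0.129), and near-term minus premature was -0.65 and -0.58 (adjusted p = 0.322 and 0.377). These 3 pairs of ages were scanned on different days and on different slides, so age and scan cannot be told apart.

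Other pairs of ages were scanned on the same day. Newborn minus premature was 0.47 (SE 0.547, adjusted p = 0.662, 95% interval -0.65 to 1.59) and 0.39 (adjusted p = 0.723, interval -0.73 to 1.51), with 12 percent of all probes called. Its adjusted p ran from 0.0269 to 0.933 and from 0.0417 to 0.994 over 42 alternatives, and no alternative reached the call, which also needs 1.5-fold. The 4 newborn arrays lay above the 4 premature ones for both probes. These ages lay on 1 slide each, so slide and age cannot be told apart. Adult minus near-term was -0.36 (adjusted p = 0.608, interval -1.48 to 0.76) and -0.28 (adjusted p = 0.691, interval -1.40 to 0.83), with 44.4% called. Without both doubted arrays it was -0.07 and -0.26 (adjusted p = 0.922 and 0.716). Leaving out 1 array at a time it ran from -0.66 (without near-term untreated array 1) to -0.07 (without near-term untreated array 4) for A_70_P012576, and from -0.40 (without adult untreated array 3) to -0.13 (without adult untreated array 4) for A_70_P012577. Within the 2 slides that held both groups, this difference was 0.56 and -0.40 for A_70_P012576 and -0.23 and -0.25 for A_70_P012577, from 1 or 2 arrays a group, and with slide as a fixed block it was -0.02 and -0.24. With normexp background correction in place of the processed signal, the adult minus near-term differences were -1.71 and -1.33 and passed (adjusted p = 0.00965 and 0.0362, in a range up to 0.986 and 0.871 over 43 alternatives). All intervals include differences of more than 2-fold.

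Whether the PHE response of CREM differed between ages was tested as an interaction in the same fit. Of 10 such comparisons 0 were called by limma, and 4 had an unadjusted p under 0.05. The response was smaller near term than in premature arteries by the estimate, at -2.50 (SE 0.777, adjusted p = 0.0569, 95% interval -4.10 to -0.91) for A_70_P012576 and -2.15 (SE 0.774, adjusted p = 0.0986, interval -3.74 to -0.56) for A_70_P012577, and 5.07% of all probes were called. For A_70_P012576 this interaction passed in 10 of 44 alternatives and for A_70_P012577 in 3 of 44, with adjusted p from 0.0107 to 0.131 and from 0.00932 to 0.208. With replicate number as a block, -2.50 for A_70_P012576 passed (adjusted p = 0.0289). Without both doubted near-term arrays the interaction was -1.75 (adjusted p = 0.109) and -1.59 (adjusted p = 0.149). The largest estimates by leaving out 1 array came without near-term PHE array 4, the brightest of its group, at -3.06 (adjusted p = 0.0107) and -2.84 (adjusted p = 0.00932). All 4 near-term PHE arrays lay on 1 slide, with near-term untreated array 4 alone. Near term, PHE and slide can thus hardly be told apart, which limits each interaction that uses near-term arrays. With slide as a fixed block, near-term minus premature was -3.37 and -2.22.

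Adult minus near-term gave interactions of 1.74 (SE 0.775, adjusted p = 0.139) and 1.5 (SE 0.772, adjusted p = 0.206), beside 12.3% called. Newborn minus near-term gave 1.74 (SE 0.776, adjusted p = 0.142) and 1.48 (SE 0.773, adjusted p = 0.215), also beside 12.3% called. Both pairs rest on the same uneven near-term arrays, where PHE and slide can hardly be told apart. Without both doubted arrays they were 0.99 and 0.94 for adult minus near-term (adjusted p = 0.347 and 0.373) and 0.98 and 0.92 for newborn minus near-term (adjusted p = 0.360 and 0.395). Without near-term PHE array 4 they were 2.30 and 2.19 (adjusted p = 0.0414 and 0.0331) and 2.29 and 2.17 (adjusted p = 0.0355 and 0.0299). Without adult PHE array 2, adult minus near-term was 2.39 and 2.19 (adjusted p = 0.0262 and 0.0338). With quantile normalization it was 0.61 and 0.20 (adjusted p = 0.623 and 0.903) and with normexp 2.96 and 2.58 (adjusted p = 0.0196 and 0.0276), the ends of its range over 44 alternatives.

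Newborn and premature arteries, each on a slide of its own and scanned on the same day, differed in the CREM response by -0.76 (SE 0.775, interval -2.35 to 0.83) and -0.67 (SE 0.772, interval -2.25 to 0.92), with an adjusted p of 1.00 for both, and 0.0194% of all probes were called. For adult minus newborn the estimates were 0.00 and 0.02 (SE 0.775 and 0.772, adjusted p = 1.00), with intervals from -1.59 to 1.59 and from -1.56 to 1.60, beside 0.0961% called. These intervals still allow responses that differ 2-fold or more.

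**Figure D3:**
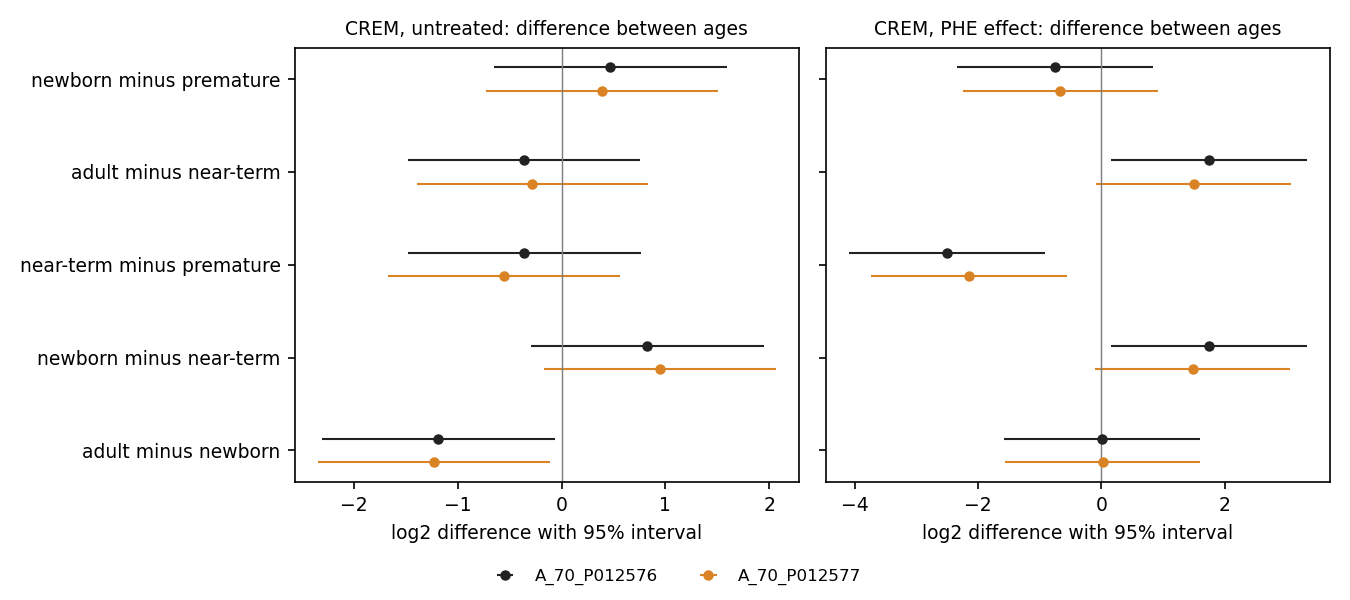
Differences between ages for the RefSeq probes of CREM, in untreated arteries (left) and in the PHE effect (right), as log2 differences with 95% intervals from limma over 32 arrays. The intervals of the near-term minus premature PHE effect, -4.10 to -0.91 and -3.74 to -0.56, lie under 0, though neither passed after adjustment. Near term, PHE and slide can hardly be told apart.

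CREM sits in the pathway from cAMP and calcium through protein kinases to CREB, the factor that binds the same promoter element. Of 70 genes of this pathway (CREB and ATF factors, their coactivators, enzymes of cAMP and protein kinase A, and kinases of CREB and its CRTC coactivators), 11 could be named on the array. Most of these, 9 of 11, could be named only through a published list of altered genes, so their counts are not independent evidence of a response. By limma, 8 of 10 tested genes rose with PHE and 0 fell in premature arteries, 7 of 11 rose and 2 fell in near-term, 7 of 10 rose and 0 fell in newborn, and 4 of 9 rose and 0 fell in adult arteries. Some of these passed the filter on low values only through their PHE arrays, which favours a rise. With only genes well above background on all 8 arrays compared, 5 of 7 rose in premature, 3 of 5 in near-term, 5 of 8 in newborn and 3 of 8 in adult arteries. At an unadjusted p under 0.05 with the same fold, the numbers that fell were 0, 2, 0 and 0. Over all probes tested, 9.45% were higher and 8.9% lower with PHE in premature, 17.9% and 18.7% in near-term, 6.22% and 5.68% in newborn, and 3.19% and 1.02% in adult arteries. The median PHE difference of the list was 1.83, 1.68, 1.42 and 0.71 at these ages in turn, against -0.09, -0.08, -0.08 and -0.04 for all probes tested. Of the genes named independently, ATF6 and PRKACA, 1 of 2 rose in premature, 0 of 2 in near-term, 1 of 2 in newborn and 0 of 1 tested in adult arteries, and 1 of 2 fell near term. The gene that rose was ATF6, which passed the filter only through its PHE arrays. By the methods' t-test after Benjamini-Hochberg, 8 pathway genes rose in premature, 1 in near-term and 0 in adult arteries, against 8, 7 and 4 at an unadjusted p under 0.05.

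Among the CREB and ATF factors, 3 of 4 named genes rose in premature, near-term and newborn arteries and 2 of 3 tested in adult arteries. Of all probes tested, 9.45%, 17.9%, 6.22% and 3.19% were higher with PHE from premature to adult arteries. Of the 4 genes, 3 were named only through the published list of altered genes, so the count is not independent evidence of a response. ATF3, an early stress-response factor of the same family, rose at each age, by 6.28 (SE 0.640) in premature, 8.52 (SE 0.639) in near-term, 2.95 (SE 0.639) in newborn and 5.04 (SE 0.636) in adult arteries. It was well above background on only 2 of 4 near-term untreated arrays. ATF4, the main effector of the integrated stress response, rose by 1.87, 1.68, 1.22 and 0.71 in the same order. ATF6, a membrane-bound sensor of the endoplasmic reticulum, rose by 1.94 in premature arteries, where 1 of 4 untreated arrays was well above background, and by at least 2.34-fold in newborn arteries, where no untreated array was well above background, and read 0.04 near term (adjusted p = 0.962), where 1 of 4 untreated arrays was, so a change there may be missed. CREB1 itself rose in near-term arteries, by 2.00 (SE 0.256) with 3 of 4 untreated arrays well above background, and differed by 0.26, -0.21 and -0.26 in premature, newborn and adult arteries, where it did not pass.

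Of 6 CREB coactivators, CRTC1 was the only 1 named, and it was tested only in near-term arteries, where it rose by 2.91 (SE 0.528) with 1 of 4 untreated arrays well above background, so it passed the filter only through its PHE arrays. Of 31 genes for cAMP and protein kinase A, 3 were named. PDE4B, a phosphodiesterase that breaks down cAMP, rose by 5.95 in premature, 6.17 in newborn and 7.40 in adult arteries (log2), and by at least 3.81 in near-term arteries, where no untreated array was well above background. At the other ages 1 of 4 untreated arrays was. PDE4D, of the same enzyme family, rose by 1.78 in premature and 2.04 in newborn arteries and differed by 0.70 and 0.80 in near-term and adult arteries without passing, and 3 of 4 untreated arrays were well above background in premature and near-term arteries. PRKACA, a catalytic subunit of protein kinase A, fell by 1.12 near term (SE 0.271, adjusted p = 0.00194) and differed by less than 0.2 at the other ages.

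Of 15 kinases of CREB and CRTC proteins, 3 were named. SIK1, a salt-inducible kinase that holds CRTC coactivators in the cytoplasm and is itself induced by CREB, rose by 3.84, 4.07, 3.21 and 4.27 in premature, near-term, newborn and adult arteries. The related kinase SIK2 rose by 1.29 in premature and 1.00 in newborn arteries and fell by 0.65 near term (adjusted p = 0.0206). MAPKAPK2, a kinase downstream of p38, rose by 1.36 in premature and 1.31 in near-term arteries. The number of pathway genes that fell near term was 1 without near-term untreated array 3 or PHE array 3, and 1 without both doubted arrays.

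Early genes known to respond to cAMP rose beside CREM. Of 29 such targets, 20 were named, 7 of them only through that list. With PHE, 14 of 16 tested genes rose in premature, 14 of 18 in near-term, 11 of 16 in newborn and 13 of 16 in adult arteries, and 0 fell in this fit, by limma, at an unadjusted p under 0.05 with the same fold as well. In other limma fits 3 fell near term with normexp background correction, 2 near term with slide as a fixed block, and 1 in premature arteries with only the arrays compared. By the methods' t-test after Benjamini-Hochberg, 14 targets rose in premature, 4 in near-term and 0 in adult arteries, against 14, 13 and 13 at an unadjusted p under 0.05. Of all probes tested, 9.45%, 17.9%, 6.22% and 3.19% were higher with PHE at these ages. The median difference was 3.90, 3.40, 2.45 and 3.24. Of the independently named genes, 8 of 10 rose in premature, 8 of 11 in near-term, 6 of 10 in newborn and 8 of 10 in adult arteries. Only their names are independent, since the list itself was chosen with earlier results of these data known. With only targets well above background on all 8 arrays compared, 13 of 15, 12 of 14, 10 of 15 and 12 of 15 rose. Without both doubted near-term arrays the numbers that rose were 14, 15, 13 and 13. These targets also answer to other signals, and which signal raised them was not tested.

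IL6, a cytokine, was at least 1123-fold brighter with PHE in premature, 363-fold in newborn and 140-fold in adult arteries, where no untreated array was well above background, and rose by 7.35 (SE 0.686) in near-term arteries, where 1 of 4 untreated arrays was. NR4A1, an orphan nuclear receptor of the early response, rose by 6.21, 7.45, 3.51 and 6.75 from premature to adult arteries. PTGS2, the inducible cyclooxygenase, rose by 5.80, 5.49, 5.10 and 4.31, and JUNB, an AP-1 subunit, by 5.91, 6.03, 4.03 and 4.72. FOS, another AP-1 subunit, rose by 4.12, 7.54 and 5.85 in premature, near-term and adult arteries and differed by 2.29 in newborn arteries, where it did not pass (adjusted p = 0.0570). EGR1, a zinc finger factor of the early response, rose by 3.92, 6.15, 1.76 and 5.55 from premature to adult arteries. Of the targets tested at all 4 ages, PER2 and BCL2 passed at none, with differences from -0.85 to -0.04 for PER2 and from 0.19 to 1.63 for BCL2.

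**Figure D4:**
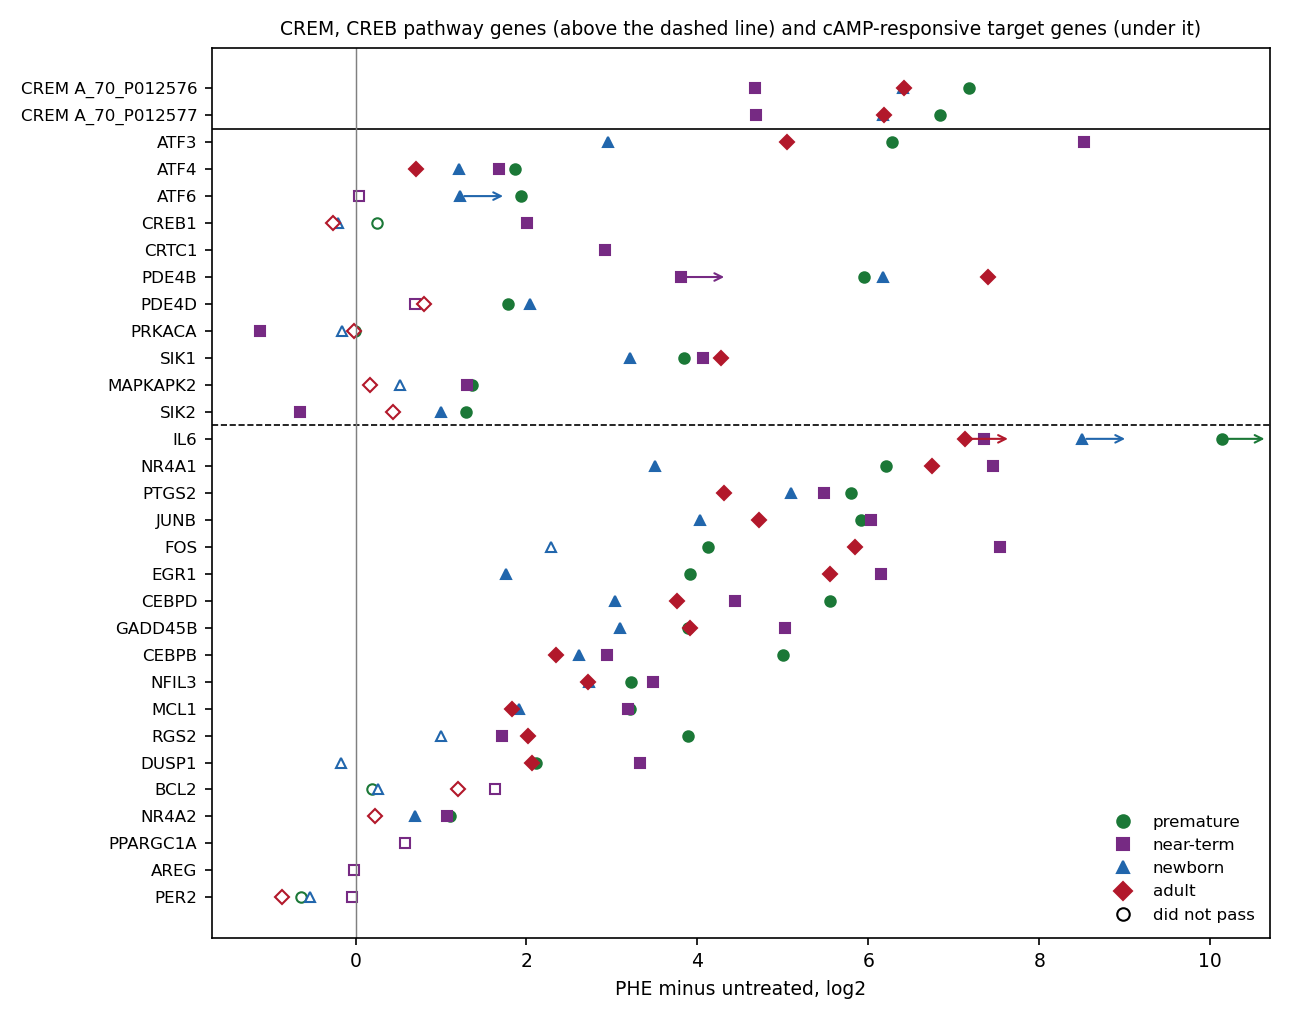
PHE minus untreated (log2 difference) for the RefSeq probes of CREM, the CREB pathway genes and the cAMP-responsive targets that were tested at the age shown, with open symbols where the call was not passed. An arrow marks a lower bound, drawn where no untreated array was well above background, and most targets lie to the right of 0 at each age.

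The receptor side could hardly be seen. Of 6 adrenergic receptor genes only ADRB1 was named, and it was well above background on 1 of 32 arrays and was not tested. None of the genes for the alpha-1 receptors that PHE binds was named on the array.

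Markers of other cells moved with PHE at some ages, beside the rise of CREM. Of all probes tested, 9.45% were higher and 8.9% lower with PHE in premature arteries, and 17.9% and 18.7% in near-term arteries. In newborn arteries these shares were 6.22% and 5.68%, and in adult arteries 3.19% and 1.02%. With so few markers tested, a count of 0 that passed says little about an age. Of 8 endothelial markers 2 were named, and TIE1, an endothelial receptor, rose by 2.01 in near-term arteries, from 1 of 4 to 4 of 4 arrays well above background, while 0 of 2 tested passed in premature and 0 of 1 in newborn and in adult arteries. Of 12 leukocyte markers 6 were named, and CD68, a macrophage protein, rose by 0.99 near term, 1.45 in newborn and 1.24 in adult arteries and differed by 0.91 in premature arteries (adjusted p = 0.0599). Near term, the leukocyte markers CD14 and CD3E differed by -1.04 and -1.34 and did not pass, with CD3E well above background on 3 of 4 PHE arrays. Of 7 erythroid markers 2 were named, and HBA1, a haemoglobin chain, fell by 1.96 in premature arteries and fell by 2.38 in near-term arteries. Of 6 fibroblast markers 4 were named, and the collagen genes COL1A1, COL1A2 and COL3A1 rose by 4.22, 4.22 and 3.73 near term, with COL1A2 up by 1.89 in premature arteries. DCN, another fibroblast marker, differed by -0.32 near term and -0.47 in premature arteries and did not pass. Of 5 fat markers 4 were named, and 0 of 2 tested passed at any age by limma, with 1 at an unadjusted p under 0.05, near term. CNN1 was not called at any age, with differences from -0.69 to 0.12. What part these markers have in the CREM values was not tested.

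The genes whose levels followed CREM most closely over the 32 arrays were found by Pearson r with A_70_P012577, the RefSeq probe with the higher mean level, over 10890 probes. Other than CREM itself, the 10 named genes with the highest r were JMJD1C (r = 0.965), TIPARP (0.965), PDE4B (0.963), SAV1 (0.958), C27H8ORF41 (0.957), MYC (0.954), ARG2 (0.952), IL6 (0.952), DUSP5 (0.949) and TGIF1 (0.949). The PHE differences of MYC, a growth-promoting transcription factor, were 4.33, 4.05, 4.12 and 4.74 from premature to adult arteries. Those of TIPARP, an enzyme that attaches ADP-ribose and is induced by the aryl hydrocarbon receptor, were 4.05, 3.39, 4.16 and 4.20. For ARG2, the mitochondrial arginase, they were 4.68, 2.52, 4.70 and 4.69. DUSP5, a phosphatase of ERK, was well above background on 18 of 32 arrays, PDE4B on 19 and IL6 on 17, so their r rests in part on dim values. In all, 55 probes had r over 0.9, and these values rest on the split between untreated and PHE arrays. Of the 10 genes, 7 were named only through the published list of altered genes.

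With the group means removed, likeness to CREM came down to how arrays of 1 group differed. The 5 named genes with the highest r of these deviations were TOPORS (r = 0.875), HNRNPF (0.867), FBXO33 (0.863), FGF2 (0.857) and PFKFB3 (0.844), all named through the same list. Spearman rho was lower, from 0.554 for FBXO33 to 0.790 for FGF2. Their PHE differences were smaller than that of CREM, from 0.76 for FGF2 in adult arteries to 3.01 for PFKFB3, an enzyme that drives glycolysis, in adult arteries. All arrays share the scaling to their own 75th percentile, and the near-term and adult PHE arrays, which were spread the widest for CREM, weigh most in these deviations.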

How the data were processed

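Total RNA of middle cerebral artery segments was labelled with Cy3 and hybridized to 1-colour Agilent sheep arrays, 1 sample per array, 32 arrays in 8 groups of 4. The authors deposited Feature Extraction 9.5.3.1 output, in which the processed signal is a background-corrected intensity on a linear scale. A deposited table with the same intensity values was used as an alternative. Each array has 15744 spots, of which 536 were controls and were left out, with outlier spots (1 to 53 per array), giving 15008 probes after spots of 1 probe were averaged. Levels were log2 of the processed signal minus log2 of its 75th percentile on the array.

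Probes were named by accession through the RefSeq sheep table (539 probes), by the file's gene name (640) or by matching group means in the study's published gene list to the arrays within 0.1% (1667), and 12162 were unnamed. Premature means in that list have few decimals, so some premature names may be chance matches (32 matches against a shifted list, beside 837). Of 129 probes named both ways, 113 had the same name. The RefSeq probes of CREM were named by accession and the EST probes by the file's gene name, and the list matched A_70_P012576 at premature, newborn and adult ages and A_70_P012577 near term. Near-term PHE means of the list matched only with near-term PHE array 1 left out. The members and gene lists were chosen with earlier results of these data known.

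limma 3.58.1 in R 4.3.3 fitted 8 group means over 32 arrays. A probe was tested where each of the 4 arrays of at least 1 compared group showed it well above background, two-sided, with Benjamini-Hochberg adjustment, and called at adjusted p under 0.05 and 1.5-fold. A gene in a list is its brightest probe. A lower bound sets the bright group's mean against, per array of the dim group, the higher of the lowest signal well above background and the probe's own. The fit was tested on simulated data, and the outcome of that test is not reported here. Genes named in the text were all CREM probes, up to 4 called genes per list and age by size, and the 10 and 5 most alike. List genes that did not pass the call were added after their values were seen. The result of 1 marker list is not reported here. Descriptive values were computed with scipy 1.17.1 and pandas 2.3.3 under Python 3.11.15 (numpy 2.4.6), and plots were drawn with matplotlib 3.10.9.

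Alternatives were normexp background correction (offset 50), quantile and median scaling, a floor of 0.01, the deposited table, each array left out, other filters on dim probes, only the arrays compared, slide and replicate number as blocks, the methods' t-test, no fold threshold and the mean of a gene's probes. Leaving out both doubted near-term arrays, slide as a fixed block and independent names were chosen after seeing the data. The arrays lay on 5 slides scanned on 2 days. Arrays with the same replicate number deviated together in premature (r from 0.403 to 0.560 over 4 pairs) and newborn arteries (0.512 to 0.605), so numbers pair arrays there, a hint from the data.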

Additional observations from a re-analysis of the deposited data

How the results depend on the processing

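The higher level of the RefSeq probes with PHE kept its direction in each alternative run, at each age. With normexp background correction, whose offset of 50 adds to dim signals, the PHE differences of A_70_P012576 were 6.02 in premature, 2.52 in near-term and 5.73 in newborn arteries, and those of A_70_P012577 were 6.11, 3.1 and 5.68. Adult differences were 5.48 and 5.68 with normexp and 5.67 and 5.5 with quantile normalization, against 6.41 and 6.19. Quantile normalization gave 7.49 and 7.17 in premature arteries. Several differences between ages, none of them called where the sign turned, changed direction. With normexp the untreated differences were -0.12 and -0.0103 for newborn minus premature, 0.85 and 0.20 for near-term minus premature, and -0.97 and -0.21 for newborn minus near-term. Untreated adult minus near-term was 0.47 and 0.73 with quantile normalization and 0.18 and 0.26 with median scaling. The adult minus newborn interaction, close to 0, was -0.25 for A_70_P012576 with normexp, -1.04 and -0.97 with quantile normalization, and -0.0603 and -0.0428 after scaling to the median. As a random block, slide gave -0.0680 and -0.00366, and as a fixed block -0.17 and -0.0292.

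Normexp also moved CREM past the threshold between ages. The untreated adult minus near-term difference was then -1.71 and -1.33. The interactions were 2.96 and 2.58 for adult minus near-term, -3.51 and -3.0 for near-term minus premature, and 3.21 and 2.57 for newborn minus near-term. For A_70_P012576 the near-term minus premature interaction also passed with quantile normalization at -2.42 (adjusted p = 0.0386), median scaling at -2.53 (0.0246), a filter for signal well above background on all arrays compared at -2.50 (0.0464), and slide as a fixed block at -3.37 (0.0311), in a range of adjusted p from 0.0107 to 0.131 over 44 alternatives. With only the arrays compared in the fit, the untreated differences that passed were 0.95 for newborn minus near-term (A_70_P012577) and -1.19 and -1.23 for adult minus newborn. The last 2 also passed without both doubted near-term arrays, at -1.19 and -1.23 (adjusted p = 0.0418 and 0.0360), because the shared spread was smaller. The cause of the other changes was not tested.

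Leaving out 1 array at a time gave -1.31 to -1.08 and -1.35 to -1.08 for untreated adult minus newborn, 1.23 to 2.39 and 0.96 to 2.19 for the adult minus near-term interaction, -3.06 to -2.03 and -2.84 to -1.61 for near-term minus premature, 1.27 to 2.29 and 0.94 to 2.17 for newborn minus near-term, and -0.51 to 0.65 and -0.42 to 0.71 for adult minus newborn. The number of pathway genes that fell near term ran from 1 to 2.

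With the replicate block, where arrays of the same number were paired, the near-term minus premature interaction of A_70_P012576 was -2.50 and passed (adjusted p = 0.0289). The block changed no other call among the CREM interactions and moved no list count by over 1.5 times. Numbers did not pair arrays in near-term (r from -0.16 to 0.43, 2 of 4 pairs over 0.1) or adult arteries (-0.11 to 0.05, 0 of 4), and 1 and 0 of 4 arrays correlated best with their own number there.

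Pathway genes that rose numbered 5 in premature and 4 in near-term arteries with normexp, and 5 of 7 and 3 of 5 tested with the stricter filter, against 8 of 10 and 7 of 11. Near term, 1 pathway gene fell with quantile normalization, without both doubted arrays or with slide as a fixed block, and 0 with only the arrays compared. By the methods' t-test after Benjamini-Hochberg, 1 pathway gene rose and 0 fell near term, 0 rose in adult arteries, and 4 targets rose near term and 0 in adult arteries, against 7, 2, 4, 14 and 13 by limma. Targets that fell were 3 near term with normexp and 2 with slide as a fixed block, and 1 in premature arteries with only the arrays compared or by the methods' t-test unadjusted. With independent names only, chosen after seeing the data, 1, 0, 1 and 0 pathway genes and 8, 8, 6 and 8 targets rose from premature to adult arteries, and 1 pathway gene fell near term.

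Median scaling moved the median of all probes by -0.12 in premature and -0.15 in near-term arteries with PHE, and by 0.54 and 0.61 in untreated adult minus near-term and adult minus newborn comparisons. Quantile normalization moved these untreated medians by 0.29 and 0.14. The share of newborn PHE calls that were higher was 52.3% and became 69.6% with median scaling. Signal over background limits the EST probes, which did not pass the filter on dim probes in any setting that used one. Their result in the run without that filter is not reported here.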

Other observations

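The array with the lowest PHE level was counted for the cAMP-responsive targets and pathway genes that rose, after the CREM values were seen. On PHE arrays 1 to 4 in turn, the targets counted 3, 2, 0 and 9 in premature, 9, 2, 3 and 0 in near-term, 7, 2, 2 and 0 in newborn, and 1, 6, 1 and 5 in adult arteries. The pathway genes counted 4, 0, 0 and 4, then 5, 1, 1 and 0, then 1, 4, 2 and 0, and then 0, 3, 1 and 0 at the same ages. CREM had its lowest PHE level on array 1 in premature and near-term arteries and on array 2 in adult arteries for both RefSeq probes, and on array 3 in newborn arteries, tied for A_70_P012577 to 2 decimals with array 2. These genes share the array's RNA and scaling, and why the arrays differ was not tested.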
